A study of Mus musculus with 12 samples.

Results

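The smooth muscle type actin-binding genes Acta2, Actg2, Tagln, Tagln2, Cnn1, Cnn2, Cald1, Myl9, Mylk and Tpm4 were examined in C2C12 myotubes given a stem cell secretome in place of horse serum. They were chosen by gene symbol with earlier results of these data known. All 10 were found once each among the 55487 Ensembl genes of the deposited count table. C2C12 cells are mouse myoblasts that fuse to myotubes in low serum. STEM is what partially differentiated cells of human embryonic origin release into their medium, collected without the cells. After 5 days of differentiation in DMEM with 2% horse serum, myotubes were kept for 24 hours in DMEM with either 4% STEM or 4% horse serum, both with penicillin and streptomycin, and 6 libraries of total RNA were sequenced per group. By the labels, libraries 1 to 6 received horse serum and libraries 7 to 12 received STEM. Because STEM replaced horse serum, addition of the one and removal of the other cannot be told apart, and all libraries came from one cell line with no animal or donor behind them. The labels do not say whether the 6 libraries of a group were separate cultures, so the p-values measure the spread between these libraries.

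These genes encode the actins, actin-binding proteins and myosin regulators of the smooth muscle contractile apparatus. In smooth muscle cells most of them are switched on by serum response factor (SRF), which binds the CArG box and works with the cofactors myocardin, MRTF-A and MRTF-B. Serum activates SRF through actin polymerisation, and TGF-beta is a well known inducer of Acta2, Tagln and Cnn1 in fibroblasts. Skeletal myoblasts also transcribe several of them before and during fusion, and Tagln2, Cnn2, Cald1 and Tpm4 are used in many non-muscle cells.

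The sequence before the transcription start was examined for the CArG box, because it is the site through which SRF acts on this family. RefSeq starts on GRCm38.p6 matched 8 of the 10 genes, with 9 entries in all, and Actg2 and Tagln had none. In the 250 bases before each start, a CArG box was found for 2 genes, Myl9 and Cnn2, against 1.47% of the 32851 promoter entries. A form of the box with 1 G or C among its 6 central bases, which excludes the exact form, was found for Myl9 and at 2 places for Acta2, against 7.24% of entries. The CArG pattern reads the same on both strands. The muscle motif MCAT (CATTCC, searched on both strands) was found for 4 genes, Acta2, Tagln2, Cald1 and Mylk, against 12.6% of entries, and it overlapped no CArG match. The Cald1 match was in its upstream entry and not in the downstream one. Some RefSeq starts lie inside the GENCODE gene, so that the 250 bases of Mylk (chr16:34784700-34784949) and Tpm4 (chr8:72135038-72135287) lay wholly within it. The Tagln2 matches also lay past the GENCODE start. The stretches with CArG matches are shown with the matches in capitals, and that of Cnn1, which held no CArG match, is shown because this gene had the largest change of the family.
Acta2, first match: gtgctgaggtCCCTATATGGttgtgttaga
Acta2, next match: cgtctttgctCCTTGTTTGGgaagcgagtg
Myl9: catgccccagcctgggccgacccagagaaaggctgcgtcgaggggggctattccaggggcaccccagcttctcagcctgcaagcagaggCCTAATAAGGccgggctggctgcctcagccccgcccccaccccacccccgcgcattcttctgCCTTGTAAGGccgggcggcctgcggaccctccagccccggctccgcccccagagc
Cnn2: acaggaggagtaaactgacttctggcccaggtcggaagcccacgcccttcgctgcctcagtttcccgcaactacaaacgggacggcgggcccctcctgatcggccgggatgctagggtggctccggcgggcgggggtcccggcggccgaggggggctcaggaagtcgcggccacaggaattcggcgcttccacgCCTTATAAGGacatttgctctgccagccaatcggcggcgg
Cnn1: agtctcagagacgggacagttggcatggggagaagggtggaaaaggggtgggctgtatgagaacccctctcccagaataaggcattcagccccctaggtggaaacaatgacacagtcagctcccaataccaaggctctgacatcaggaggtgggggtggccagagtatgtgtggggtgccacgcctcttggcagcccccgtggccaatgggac
The stretches of Acta2 lie on the minus strand at chr19:34255438-34255467 and chr19:34255388-34255417, with matches that begin 84 and 34 bases before the RefSeq start, inside the exon of a GENCODE transcript that starts further upstream. Those of Myl9 (chr2:156775214-156775419), Cnn2 (chr10:79988350-79988583) and Cnn1 (chr9:22099003-22099215) lie on the plus strand and end before the first annotated exon. In Myl9 the exact match begins 161 bases before the start and the other form 99 bases before it, and in Cnn2 the match begins 56 bases before the start. A match is a description of these letters, and binding of SRF was not measured.

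Total counts ranged from 13285472 to 18254882 over the horse serum libraries and from 14909485 to 24536264 over the STEM libraries. Every one of the 10 genes had at least 129 counts in each library and passed the filter on low counts. Levels are given as CPM, the counts of a gene per 1000000 of the TMM-scaled library total, and changes as log2 fold changes of STEM over horse serum from edgeR's quasi-likelihood test. A gene was called when its adjusted p-value (Benjamini-Hochberg over 14175 tested genes) was 0.05 or less. Myotube markers were abundant in all libraries, with a sum over 12 genes between 8429 and 15447 CPM. Horse serum library 6 had the lowest sum and stood apart from the others, so results that change without it are given both ways.

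Of the 10 genes, 5 rose with STEM (Cnn1, Mylk, Tagln, Acta2 and Myl9), 2 fell (Tagln2 and Cald1) and 3 were not called (Actg2, Cnn2 and Tpm4). Among all tested genes 18.9% were called higher, 17.4% lower and 36.4% in either direction. The median log2 fold change of the 10 genes was 0.21, and that of all tested genes was 0.012. All STEM libraries lay beyond all horse serum libraries for 5 of the 10 genes, against 17.2% of all tested genes. Without horse serum library 6, 7 of the 10 genes were called higher and 2 lower, with 26.3% of all tested genes called higher, 24.5% lower and 50.8% in either direction. The count of genes without overlap was then 7 of 10, against 33.4% of all tested genes. Because the 10 genes were chosen with earlier results of these data known, these shares are a description and no test of the family. Most of the 10 genes had higher levels than most tested genes, and the shares of all tested genes were not matched for level.

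The order of levels was set per length, as CPM per kilobase of exon, with all annotated exons of a gene joined. This length can exceed that of any 1 transcript, and it was 12041 bases for Cald1 and 11263 for Mylk, against 1557 for Actg2. The order therefore depends in part on annotation. Acta2 was the highest, at 880 ± 90.9 with horse serum and 1117 ± 91.6 with STEM (SD, n = 6 each), above 99.7% of the tested genes. Tpm4 came next at 387 ± 22.3 with horse serum. Tagln (178 ± 21.0) and Myl9 (158 ± 16.1) followed with horse serum, and with STEM they stood at 227 ± 8.11 and 186 ± 15.6. The SDs of these genes overlapped with horse serum, and they were not compared within libraries. Cnn2 (82.8 ± 5.48) and Tagln2 (81.3 ± 6.06) were alike with horse serum and apart with STEM, at 90.4 ± 4.08 and 59.1 ± 6.97. Lower levels per length were those of Actg2 (44.1 ± 5.36 with horse serum), Cald1 (21.9 ± 1.43), Cnn1 (4.70 ± 0.40) and Mylk (0.98 ± 0.11). In CPM without division by length, Cald1 (263 ± 17.3 with horse serum) lay above Actg2 (68.7 ± 8.35). Per length, Mylk lay above 19.8% of the tested genes, near their low end, in the same libraries in which Acta2 lay near the top.

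**Figure D1:**
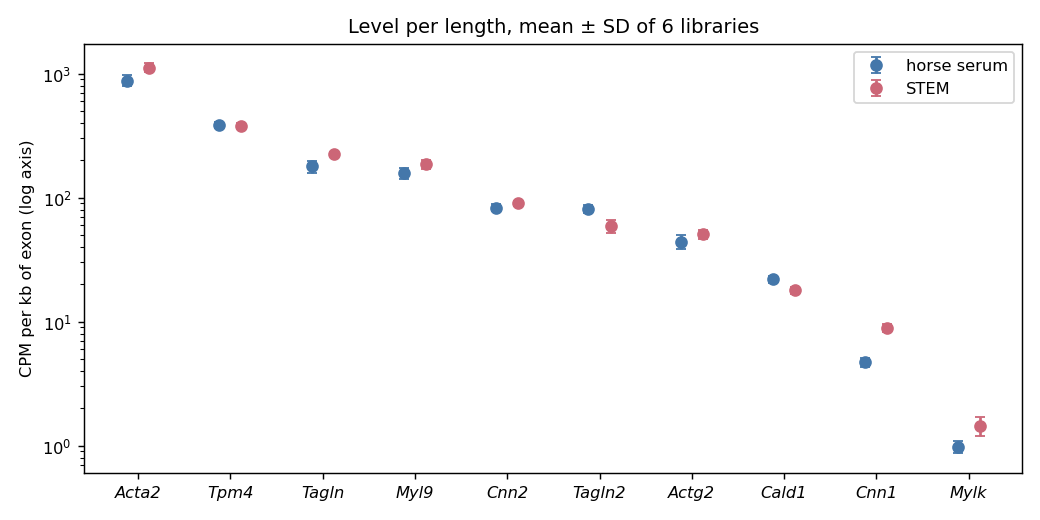
Mean level of each of the 10 genes in CPM per kilobase of exon (log axis) with horse serum (blue) and STEM (red), with the SD of 6 libraries. Levels span from 0.98 for Mylk to 880 for Acta2 with horse serum, and Cnn2 and Tagln2 coincide with horse serum only.

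The actins of the smooth muscle type are Acta2, the alpha-actin of vascular smooth muscle and of myofibroblasts, and Actg2, the gamma-actin of enteric smooth muscle. Acta2 (ENSMUSG00000035783, chromosome 19, 34241090 to 34255590) lay between 1721 and 2305 CPM with horse serum, with a median of 1884, and between 2277 and 2795 CPM with STEM, with a median of 2393. All STEM libraries exceeded horse serum libraries 1 to 5, and only horse serum library 6, the highest of its group, overlapped with them. Acta2 rose by 0.34 on the log2 scale (standard error 0.072, edgeR adjusted p = 0.00184), or by 26.8%.

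Actg2 (ENSMUSG00000059430, chromosome 6, 83512905 to 83536265) lay between 59.1 and 83.4 CPM with horse serum (median 67.8) and between 72.2 and 87.8 CPM with STEM (median 78.0). The groups overlapped through horse serum library 6, which held the 83.4 CPM. The log2 fold change was 0.19 with an unadjusted 95% interval from 0.031 to 0.36 and did not pass (adjusted p = 0.0603, edgeR). Without library 6 the log2 fold change was 0.26 and the gene was called (adjusted p = 0.00112, edgeR). The coding sequences of the actins are nearly identical, so counting could have split reads between Acta2, Actg2, Acta1 and Actc1.

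Transgelin, or SM22, is an actin-bundling protein and an early marker of smooth muscle differentiation. Tagln (ENSMUSG00000032085, chromosome 9, 45929619 to 45936058) lay between 302 and 415 CPM with horse serum (median 352) and between 430 and 478 CPM with STEM (median 447). The lowest STEM library lay above the highest horse serum library. Tagln rose by 0.35 on the log2 scale (standard error 0.068, edgeR adjusted p = 0.00114). Library 6 was the lowest horse serum library for Tagln and for none of the other 9 genes. Tagln overlaps Pcsk7 on the opposite strand, whose counts came to 10.9% of those of Tagln, and the use of strand in counting is not given in the sources used here.

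Transgelin 2, the homologue found in non-muscle cells, went the other way. Tagln2 (ENSMUSG00000026547, chromosome 1, 172500047 to 172507380) lay between 158 and 194 CPM with horse serum (median 166) and between 105 and 142 CPM with STEM (median 118), without overlap. With a log2 fold change of -0.46 (standard error 0.073, edgeR adjusted p = 0.000226), it fell by 27.3%. Within the STEM group, libraries 7 (142 CPM) and 8 (139 CPM) lay above the other 4, which held between 105 and 120 CPM.

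Calponin 1 is the calponin of differentiated smooth muscle, where it binds actin and inhibits the myosin ATPase. Cnn1 (ENSMUSG00000001349, chromosome 9, 22099216 to 22109630) had the largest change of the 10 genes. It lay between 10.9 and 13.9 CPM with horse serum (median 12.8) and between 22.2 and 26.6 CPM with STEM (median 23.4), a gap wider than the range of either group. Cnn1 rose by 0.91 on the log2 scale (standard error 0.072, edgeR adjusted p = 4.38e-07), to 1.88 times its level with horse serum. The gene was counted between 166 and 272 times per horse serum library and between 330 and 573 times per STEM library.

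Calponin 2, which is broadly expressed, was more abundant and moved little. Cnn2 (ENSMUSG00000004665, chromosome 10, 79988584 to 79996062) lay between 189 and 220 CPM with horse serum (median 202) and between 208 and 238 CPM with STEM (median 223), with 4 STEM libraries above every horse serum library. Its log2 fold change of 0.13 (unadjusted 95% interval 0.019 to 0.23) was not called (adjusted p = 0.0620, edgeR). The gene was called when horse serum library 6 (adjusted p = 0.00795), horse serum library 3 (adjusted p = 0.0460) or STEM library 8 (adjusted p = 0.0468) was left out of the edgeR fit.

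Caldesmon binds actin and tropomyosin and holds back the myosin ATPase. Cald1 (ENSMUSG00000029761, chromosome 6, 34598500 to 34775473) lay between 246 and 288 CPM with horse serum (median 261) and between 194 and 233 CPM with STEM (median 213), without overlap. It fell by 0.29 on the log2 scale (standard error 0.054, adjusted p = 0.000679, edgeR), or by 18.4%. The gene gives a long smooth muscle form and a short non-muscle form by splicing, which counts per gene do not separate.

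Myl9 encodes the regulatory light chain of smooth muscle myosin, and Mylk the kinase that phosphorylates it to start contraction. Myl9 (ENSMUSG00000067818, chromosome 2, 156775420 to 156781658) lay between 165 and 212 CPM with horse serum (median 181) and between 194 and 246 CPM with STEM (median 210). The groups overlapped, and 2 STEM libraries exceeded every horse serum library. Myl9 rose by 0.23 on the log2 scale (standard error 0.070, edgeR adjusted p = 0.0178), or by 17.5%.

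Mylk (ENSMUSG00000022836, chromosome 16, 34745210 to 35002420) lay between 8.84 and 12.04 CPM with horse serum (median 11.5) and between 13.1 and 20.4 CPM with STEM (median 15.8), without overlap. It rose by 0.56 on the log2 scale (standard error 0.11, adjusted p = 0.00152, edgeR). The STEM libraries were uneven, with a coefficient of variation of 17.4%, the highest of the 10 genes in that group, on 203 to 346 counts. The gene gives a long kinase, a short kinase and telokin, which counts per gene do not separate.

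Tropomyosin 4 is a short tropomyosin of the cytoskeleton and of nascent myofibrils. Tpm4 (ENSMUSG00000031799, chromosome 8, 72134975 to 72153142) lay between 790 and 910 CPM with horse serum (median 856) and between 792 and 878 CPM with STEM (median 848), so that the STEM range lay within that of horse serum. The log2 fold change was -0.02 with a 95% interval from -0.13 to 0.081 (adjusted p = 0.725, edgeR). Tpm4 had the smallest change of the 10 genes.

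**Figure D2:**
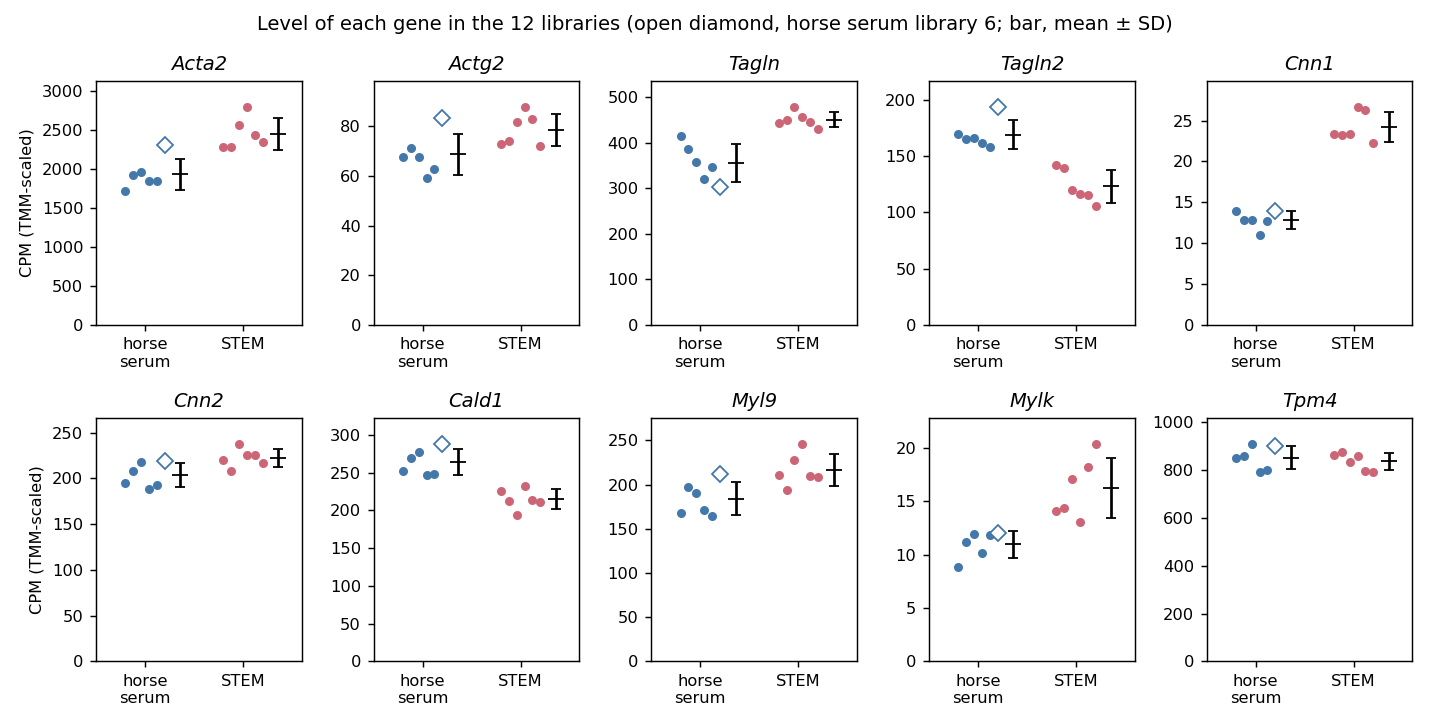
Level of each gene in CPM (vertical axes from 0, a separate scale per gene) in the 6 horse serum (blue) and 6 STEM (red) libraries, with the mean and SD as a black bar. Horse serum library 6, drawn as an open diamond, is the highest horse serum library for 8 of the 10 genes and the lowest for Tagln, and the 2 groups are separate for Tagln, Tagln2, Cnn1, Cald1 and Mylk.

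**Figure D3:**
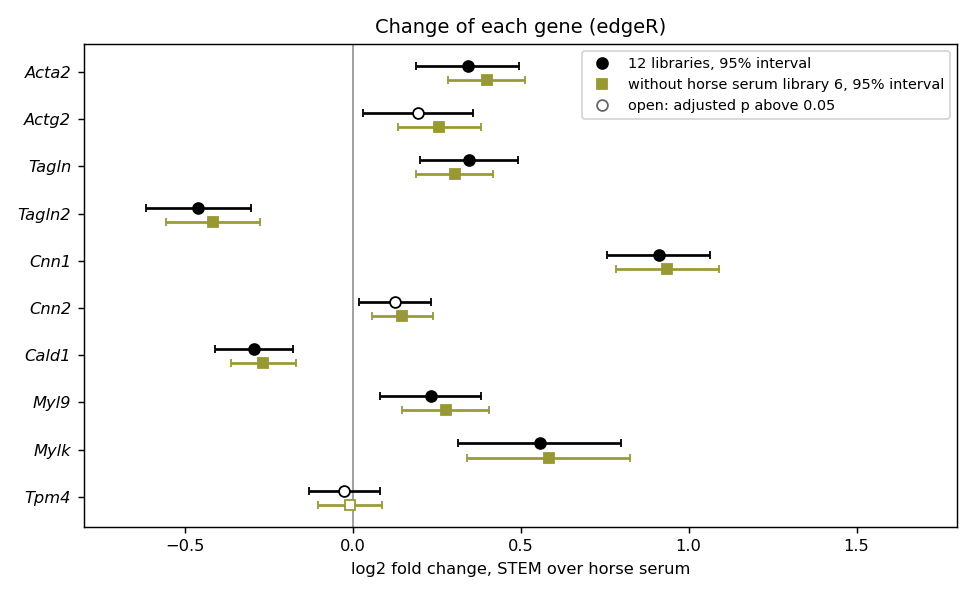
Log2 fold change of STEM over horse serum for each gene with its 95% interval, over 12 libraries (black circles) and without horse serum library 6 (olive squares), with open symbols for an adjusted p-value above 0.05. Cnn1 lies farthest to the right at 0.91 and Tagln2 farthest to the left at -0.46, and Actg2 and Cnn2 are filled only without library 6.

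Whether members of one family changed unequally was examined within each library, as the difference in log2 CPM between a gene and a paralog over 6 pairs. The genes of these pairs were chosen with earlier results of these data known. Tagln2 minus Tagln went from -1.06 ± 0.23 with horse serum to -1.88 ± 0.17 with STEM (SD, n = 6 each), a shift of -0.82 without overlap (two-sided exact permutation test, p = 0.00649 adjusted over 6 pairs). Cnn2 minus Cnn1 went from 3.98 ± 0.11 to 3.20 ± 0.11, a shift of -0.78, also without overlap (two-sided exact permutation test, adjusted p = 0.00649). In both families the smooth muscle type gene gained on the broadly expressed one in all 6 STEM libraries. The unadjusted p of both pairs, 0.00216, was the smallest that 6 libraries against 6 allow. Tagln and Tagln2 were each separate between the groups, in opposite directions, so the separation of their difference was already given. On the log2 scale the gap in Cnn1 was likewise wider than the range of Cnn2 over all libraries. The results of both pairs therefore restate the values of the single genes and are no further support.

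Myl9 minus Myl12a, its non-muscle counterpart, shifted by 0.49 (two-sided exact permutation test, adjusted p = 0.00866). Myl9 rose while Myl12a fell (log2 fold change -0.26, adjusted p = 0.00215, edgeR). Myl12a shares its position with a second gene model named Myl12b on the same strand and with Myom1 on the other, so its count is uncertain. Horse serum library 6 (-0.78) lay within the STEM libraries (-0.90 to -0.56) for this pair.

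Acta2 minus Acta1, the skeletal alpha-actin, was -0.97 ± 0.41 with horse serum and -0.49 ± 0.19 with STEM, a shift of 0.48 that did not pass (two-sided exact permutation test, adjusted p = 0.0519). Library 6 held -0.15, where the other 5 horse serum libraries held between -1.23 and -0.99, and without it the shift was 0.65 (exact permutation test, adjusted p = 0.00325). The shift also passed without STEM library 7, at 0.53 (exact permutation test, adjusted p = 0.0455). Tpm4 minus Tpm1 shifted by 0.20 (exact permutation test, adjusted p = 0.210) and by 0.34 without library 6 (adjusted p = 0.00519, exact test). Actg2 minus Actg1 shifted by 0.12 (exact permutation test, adjusted p = 0.0753), and by 0.15 when either horse serum library 2 (adjusted p = 0.0390) or STEM library 12 (adjusted p = 0.0325) was left out of the exact test.

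**Figure D4:**
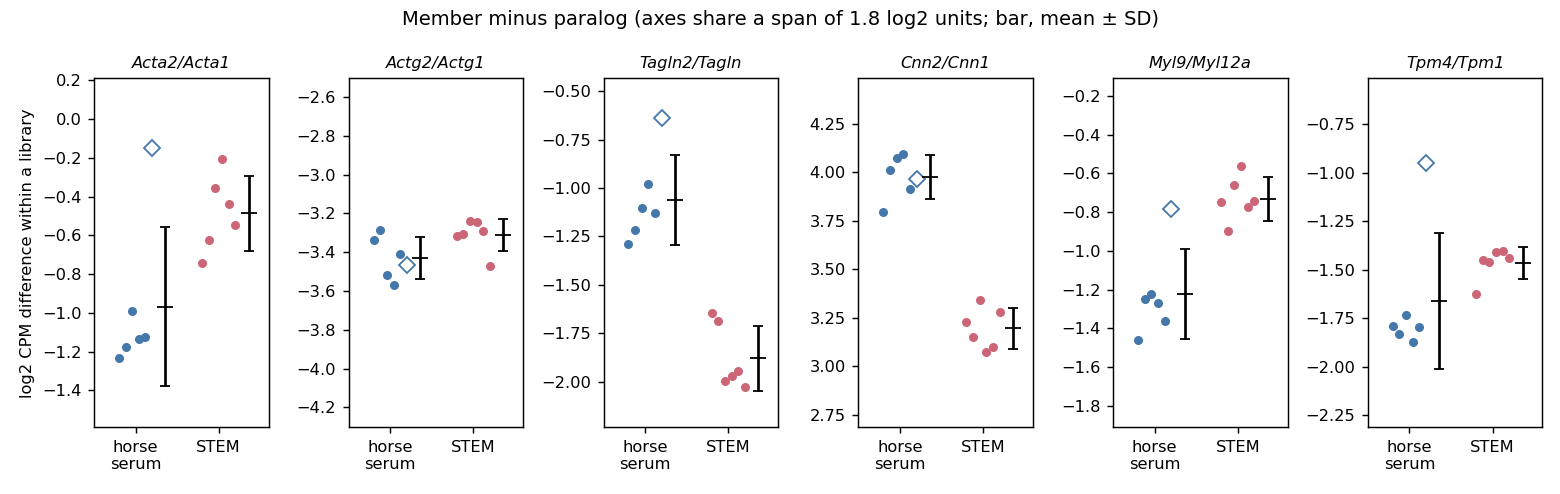
Difference in log2 CPM between a gene and its paralog in each library (points; blue, horse serum; red, STEM; open diamond, horse serum library 6), with the mean and SD as a black bar, on axes of equal span. Tagln2/Tagln and Cnn2/Cnn1 are separate between the groups, while library 6 lies far above the other horse serum libraries for Acta2/Acta1 and Tpm4/Tpm1.

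As shares of a family's summed level per length, Acta2 made up 15.9 ± 2.85% of the 6 conventional actins with horse serum and 20.7 ± 1.93% with STEM. The share was 21.7% in horse serum library 6 and between 14.1 and 15.4% in the other 5, below all STEM libraries (18.3 to 23.6%). Actg2 stayed near 1% of the actins, at 0.80 ± 0.16% and 0.94 ± 0.089%. Tagln made up 68.5 ± 3.52% of the transgelins with horse serum and 79.3 ± 1.92% with STEM, and Tagln2 held nearly all of the remainder.

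Cnn1 was a minor calponin in both media, at 1.3 ± 0.10% with horse serum and 2.41 ± 0.13% with STEM. Cnn3, the acidic calponin, held 76.6 ± 0.78% and 73.0 ± 0.81%. Tpm4 held 26.9 ± 6.20% and 26.8 ± 1.35% of the tropomyosins, with 39.4% in horse serum library 6. Mylk held 7.16 ± 2.25% and 10.8 ± 1.53% of the myosin light chain kinase genes, most of which was Mylk2, the skeletal muscle kinase, at 67.0 ± 3.37% and 64.7 ± 2.63%. These shares are descriptions and were not tested. They depend on the joined exon length, which was 6485 bases for Tpm1, 2909 for Tpm2 and 6085 for Tpm3, against 2203 for Tpm4. In CPM, the horse serum means were 2744 for Tpm1, 1762 for Tpm2, 378 for Tpm3 and 852 for Tpm4.

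Of the 12 genes of SRF and its cofactors, 11 were tested, with a median log2 fold change of 0.21. In this list 3 were called higher and 2 lower, or 45.5% against 36.4% of all tested genes. Srf itself rose by 0.24 on the log2 scale, from 41.7 ± 1.49 to 49.2 ± 3.26 CPM (edgeR adjusted p = 0.00241). Mrtfa, which carries the actin signal to SRF, rose by 0.41, from 15.5 ± 3.64 to 20.7 ± 3.66 CPM (edgeR adjusted p = 0.0433). The call of Mrtfa was lost with upper quartile scaling (adjusted p = 0.0502), with total counts (adjusted p = 0.0609), without the filter on low counts (adjusted p = 0.112) and when any of horse serum libraries 1 to 5 or STEM libraries 8, 11 and 12 was left out (adjusted p from 0.0590 to 0.100, edgeR).

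Mrtfb was at 22.0 ± 3.41 CPM and 26.1 ± 6.51 CPM and was not called (log2 fold change 0.24, adjusted p = 0.238, edgeR). Myocd, the cofactor that defines smooth muscle, did not exceed 2 counts in any library. The cofactor gene Fhl2 fell by 0.70 on the log2 scale, from 71.7 ± 4.81 CPM to 44.1 ± 3.20 CPM (adjusted p = 7.34e-07, edgeR). Hopx, an inhibitor of SRF, also fell by 0.70, from 5.11 ± 1.18 CPM to 3.15 ± 0.25 CPM (adjusted p = 0.00269), and Csrp2, a LIM protein that binds SRF, rose by 0.21 (adjusted p = 0.00883, both from edgeR). Without horse serum library 6, 6 genes of this list were called higher and 3 lower, with 50.8% of all tested genes called in either direction.

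Other cytoskeletal targets of SRF moved in both directions. Of 17 tested, 2 were called higher and 5 lower, or 41.2% against 36.4% of all tested genes, with a median log2 fold change of 0.015. Csrp1 fell from 262 ± 14.6 CPM to 176 ± 11.6 CPM (log2 fold change -0.58, adjusted p = 1.49e-06, edgeR). The matricellular genes Ccn1 and Ccn2, targets of both SRF and YAP, fell by 0.37 and by 0.82 (adjusted p = 0.000531 and 0.000912, edgeR), whereas Pdlim7, a PDZ and LIM domain protein of the actin cytoskeleton, rose by 0.27 (adjusted p = 0.000138, edgeR). Without library 6, 12 genes of this list were called, 5 higher and 7 lower, with 50.8% of all tested genes called in either direction.

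Of the paralogs of the 10 genes, 12 of 14 were tested and 2 were called, both lower: Myl12a, and the tropomyosin gene Tpm3 (log2 fold change -0.43, adjusted p = 0.0118, edgeR, and 0.0538 without the filter on low counts). The called share of the tested paralogs was 16.7%, against 36.4% of all tested genes, and their median log2 fold change was -0.15. Without library 6 there were 9 calls, 2 higher and 7 lower, with 50.8% of all tested genes called in either direction. Acta1 (log2 fold change -0.16, adjusted p = 0.251) and Tpm1 (-0.24, adjusted p = 0.114) were among those called only without it, at -0.25 (adjusted p = 0.000271) and -0.34 (adjusted p = 2.85e-05, edgeR throughout). Actg1, a cytoplasmic actin, had a log2 fold change of 0.073 (adjusted p = 0.471) and of 0.15 without library 6 (adjusted p = 0.0176, edgeR).

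Of 15 tested genes of actomyosin and its regulation, 3 were called higher and 5 lower, or 53.3% against 36.4% of all tested genes, and the median log2 fold change was -0.03. Without library 6, 5 were called higher and 6 lower, with 50.8% of all tested genes called in either direction. Rock2, a kinase gene whose product raises the phosphorylation of myosin light chains, fell from 414 ± 51.9 CPM to 298 ± 22.3 CPM (log2 fold change -0.47, adjusted p = 0.00041, edgeR), and Rock1 fell by 0.17 (adjusted p = 0.00861, edgeR). The non-muscle myosin heavy chain gene Myh14 fell from 3.17 ± 1.42 CPM to 0.88 ± 0.39 CPM (log2 fold change -1.82, adjusted p = 0.00470, edgeR). Myl6, the essential light chain shared by smooth and non-muscle myosin, rose by 0.22 (adjusted p = 0.00407, edgeR). The call of Rock1 was lost with total counts only and that of Myh14 with limma-voom.

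**Figure D5:**
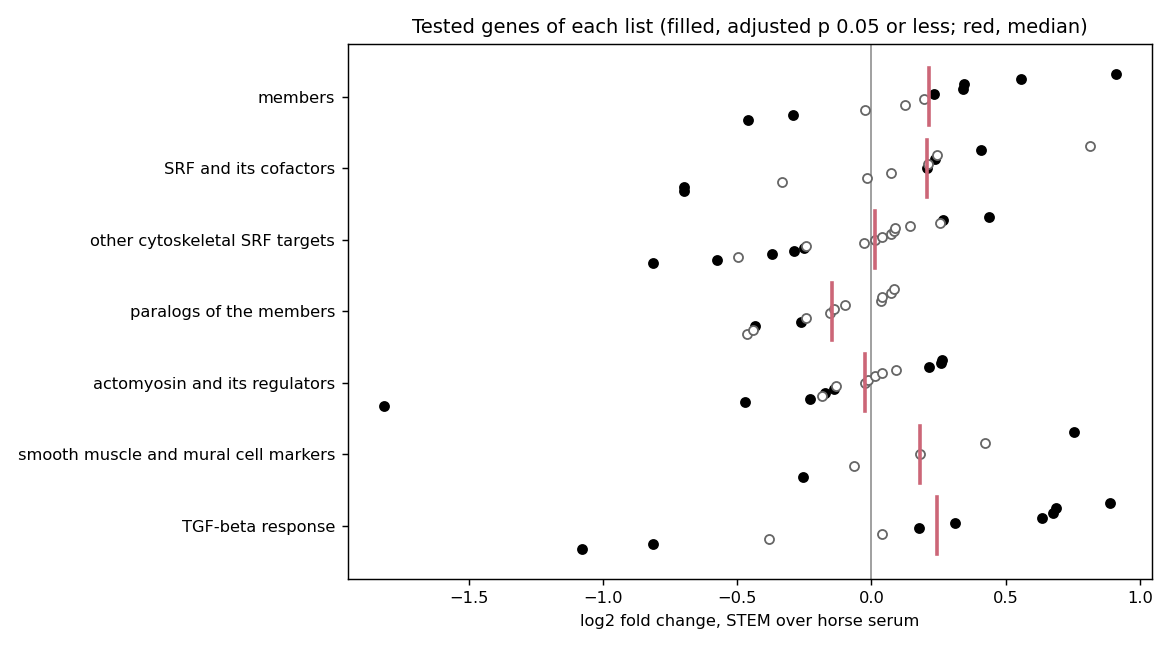
Log2 fold change of each tested gene by list, filled where the adjusted p-value is 0.05 or less, with the median of each list as a red line. The 10 genes have a median of 0.21 with 5 filled points to the right of 0 and 2 to the left, while the other cytoskeletal targets of SRF have 2 to the right and 5 to the left.

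Smooth muscle identity was checked with a list of 10 markers of smooth muscle and mural cells. Only 5 of them passed the filter, and Myh11 (at most 12 counts in any library), Myocd (2), Rgs5 (2), Kcnmb1 (5) and Itga8 (7) did not. Myh11, the smooth muscle myosin heavy chain, was at 0.42 ± 0.19 CPM and 0.33 ± 0.11 CPM. The other 5 were expressed, with Smtn (61.2 ± 5.71 CPM with horse serum), Synpo2 (150 ± 27.0) and Notch3 (88.9 ± 23.4) not called and named after their values were seen, so the list was present in part and Myh11 and Myocd, which define smooth muscle, were at or near 0. Pdgfrb, a receptor of mural cells and of mesenchymal cells at large, was called higher (log2 fold change 0.76, adjusted p = 0.0324, edgeR) and Lmod1 lower (-0.25, adjusted p = 0.0334, edgeR). The summed level of the list lay between 369 and 537 CPM with horse serum, highest in library 6, and between 462 and 677 CPM with STEM. Both calls depended on settings, with adjusted p-values up to 0.0827 for Pdgfrb and up to 0.0818 for Lmod1 under other settings. The called share of the 5 tested markers was 40%, against 36.4% of all tested genes. Without horse serum library 6, Notch3 was called higher (log2 fold change 0.58, edgeR adjusted p = 0.0253). The list then had 2 genes called higher and 1 lower, with 50.8% of all tested genes called in either direction.

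The TGF-beta response was described because it is a known inducer of Acta2 and Tagln. Of 10 genes tested, 6 were called higher and 2 lower, or 80% against 36.4% of all tested genes, with a median log2 fold change of 0.24. Pmepa1, a feedback inhibitor of the pathway, rose from 135 ± 45.1 CPM to 251 ± 29.0 CPM (log2 fold change 0.89, adjusted p = 0.00214, edgeR), and the ligand gene Tgfb1 rose by 0.69, from 10.6 ± 1.99 CPM to 17.1 ± 3.97 CPM (adjusted p = 0.00330, edgeR). Ccn2 fell, as given above, and the transcriptional repressor gene Bhlhe40 rose by 0.31 (adjusted p = 0.00232, edgeR).

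Markers of other states of the culture also moved. Of 7 markers of proliferating myoblasts 5 fell, or 71.4%, where 17.4% of all tested genes were called lower. The summed level of the 7 markers lay between 525 and 624.9 CPM with STEM and between 682 and 1103 CPM with horse serum, without overlap. They included Top2a and Cdk1 of the cell cycle, which fell by 0.65 and by 0.62 (adjusted p = 0.000434 and 0.000966, edgeR), and the myoblast factor gene Myf5, which fell by 0.42 (adjusted p = 0.00132, edgeR). Of 12 myotube markers 2 rose and 2 fell, or 33.3% against 36.4% of all tested genes. The sum of the 12 lay between 12142 and 14614 CPM with STEM, between 14451 and 15447 CPM in horse serum libraries 1 to 5 and at 8429 CPM in library 6. The fusion gene Mymk rose by 0.36 (adjusted p = 0.000361) and the calcium release channel gene Ryr1 by 0.51 (adjusted p = 0.00763), while Myog, a regulator of differentiation, fell by 0.29 (adjusted p = 0.00404) and Myh8, the perinatal myosin heavy chain gene, fell by 1.25 (adjusted p = 0.0357, edgeR throughout). The call of Myh8 was lost without the filter on low counts (adjusted p = 0.0798), with limma-voom (adjusted p = 0.105) and when any library other than horse serum library 6 was left out of the edgeR fit (adjusted p from 0.0505 to 0.0745). Without library 6, 2 of the 12 were called higher and 6 lower, with 50.8% of all tested genes called in either direction. Of 8 fibroblast markers 5 were tested, and 40% of these were called, against 36.4% of all tested genes. Col1a1 rose by 0.71 (adjusted p = 0.0161) and Postn fell by 0.40 (adjusted p = 0.0152, both from edgeR), and both calls were lost without the filter on low counts (adjusted p = 0.0527 and 0.0633). Without library 6, 2 fibroblast markers were called higher and 1 lower. Their sum was 968 to 1446 CPM with STEM and 1069 to 1350 CPM with horse serum, while Thy1, Lum and Tcf21 did not exceed 3 counts in any library. The part of these states in the changes of the 10 genes was not tested, and in RNA from whole cultures fewer cells of a kind and less RNA per cell cannot be told apart.

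The genes whose pattern was most like that of the 10 genes were named from Pearson's r, over 12 libraries, with the mean of their log2 CPM scaled per gene. They were Gm43797 (r = 0.945), the cystine transporter gene Slc7a11 (0.931), the nucleoporin gene Nup50 (0.931), the exonuclease gene Rexo2 (0.928) and the actin-depolymerising factor gene Dstn (0.920). All 5 share the 12 libraries and the 2 groups with the score, and the score joins genes that moved in opposite directions. Gm43797 was near the floor, with 4 to 19 counts per horse serum library and 13 to 30 counts per STEM library. Slc7a11 rose from 5.70 ± 2.52 CPM to 11.7 ± 1.85 CPM (adjusted p = 0.0026, edgeR), and Dstn, at 231 ± 24.7 CPM and 260 ± 14.9 CPM, was not called (adjusted p = 0.0532, edgeR). Dstn was called without horse serum library 6 (log2 fold change 0.23, edgeR adjusted p = 0.000302) and with limma-voom (adjusted p = 0.0491), and Nup50, not called over 12 libraries (0.084, adjusted p = 0.226), was called without library 6 (0.12, edgeR adjusted p = 0.0413).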

How the data were processed

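After ribosomal RNA was removed from total RNA, stranded libraries were sequenced in paired reads. The authors deposited raw counts per Ensembl gene on GRCm38 without normalization, and the submitters' processing notes name STAR 2.7.3a, featureCounts 1.6.3 and DESeq2 1.26.0, with no role given. Counting options and the annotation release are not given in the sources used here. Symbols, positions and exon lengths came from GENCODE M21 (GRCm38). Counts were tested with edgeR 4.0.16 (TMM, filterByExpr, robust quasi-likelihood test) in R 4.3.3 over 14175 genes. The alternatives were 3 other scalings, no filter, at least 10 counts in every library, DESeq2 1.42.0 (the study's tool), limma-voom (limma 3.58.1) and leaving out each library. Log2 CPM used a prior count of 2 (0.5 as an alternative). Paralog pairs were compared by exact permutation tests. The fits were tested on simulated data. Within-group pairs of libraries had a chi-square per degree of freedom of at least 3.63, so no pair differed by the sampling of reads alone. It was 64.3 to 77.8 for pairs with horse serum library 6, 3.72 to 10.1 for other horse serum pairs and 3.63 to 20.8 for STEM pairs. These values do not show whether the libraries came from separate cultures. The 10 genes and all lists were chosen with earlier results of these data known. Named are the 10 genes, their paired paralogs, Srf, Mrtfa, Mrtfb, Myocd, Myh11, at most 4 called genes per list by lowest p and the 5 genes most alike. Some are not described. Cnn3 and Mylk2 (in the shares), and Rgs5, Kcnmb1, Itga8, Thy1, Lum and Tcf21 (markers at or near 0), were named after their values were seen.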

Additional observations from a re-analysis of the deposited data

Results flagged for a closer look

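Within each group of 6 libraries, the highest or lowest value was compared with its gap to the nearest other library (Dixon's ratio). Of 110 groups of values examined, 19 held a library that stood apart, against about 1 in 20 by chance, and 15 of the 19 were horse serum library 6. Of the 10 genes, this held for Tagln2 alone, at 194 CPM in library 6. Among the paralogs and other actin-related genes, library 6 stood apart for Acta1 (2553 CPM), Tpm1 (1743 CPM), Tpm3 (258 CPM), Rock2 (311 CPM) and Myh14 (0.41 CPM). It also did for Ccn2 (71.6 CPM), Pmepa1 (221 CPM), Pdgfrb (238 CPM), Myh8 (79.8 CPM), Postn (556 CPM) and Slc7a11 (10.6 CPM). For the pairs, its difference in log2 CPM stood apart for Acta2/Acta1 (-0.15), Myl9/Myl12a (-0.78) and Tpm4/Tpm1 (-0.95).

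The remaining 4 were STEM libraries. They were library 11 for Myf5 (11.4 CPM), library 12 for Ccna2 (56.0 CPM) and for Actg2/Actg1 (-3.47), and library 7 for Tpm4/Tpm1 (-1.62).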

How the results depend on the processing

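No paired analysis was possible because the 2 groups share no replicate numbers in the labels. Of the 10 genes, Acta2, Tagln, Tagln2, Cnn1, Cald1, Myl9, Mylk and Tpm4 kept their direction and their side of the threshold under all 19 alternatives, and no named gene or pair reversed. With 1 library left out, 7 to 9 of the 10 genes were called, and 4459 to 7245 genes in all, with 7245 without horse serum library 6. In the same way the calls ranged from 4 to 9 for SRF and its cofactors, from 6 to 12 for other SRF targets, from 2 to 9 for the paralogs, from 7 to 11 for actomyosin and its regulators and from 0 to 3 for the smooth muscle markers, and each of these maxima came without library 6. No smooth muscle marker was called by edgeR without horse serum library 1, 2 or 4 or without STEM library 9, 11 or 12 (2 at an unadjusted p under 0.05 in each), and 1 without horse serum library 3 or 5 or STEM library 10. The shift of Acta2/Acta1 ranged from 0.43 to 0.65, that of Actg2/Actg1 from 0.091 to 0.15 and that of Tpm4/Tpm1 from 0.16 to 0.34. A prior count of 0.5 changed no call among the 6 pairs. Without the filter on low counts, 4648 of the 29620 genes with counts were called, and the paralogs and the smooth muscle markers had 1 call each. The calls lost were those of Tpm3 (log2 fold change -0.44, edgeR adjusted p = 0.0538) and Pdgfrb (0.75, edgeR adjusted p = 0.0827). The cause of this was not tested. The scalings moved the median log2 fold change of all genes to between -0.0082 and 0.031. The causes of the changes without library 6 were not tested.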

Other observations

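Within the STEM group, libraries 7 and 8 stood together for some of the 10 genes. Tagln2 was at 142 and 139 CPM in these libraries and between 105 and 120 CPM in libraries 9 to 12, and Acta2 was lowest in them, at 2283 and 2277 CPM, against 2346 to 2795 CPM in the other 4. Tagln2 minus Tagln was -1.65 and -1.69 in libraries 7 and 8 and between -2.03 and -1.94 in the other 4. For Cnn1 they were at 23.4 and 23.3 CPM, within the range of the other STEM libraries (22.2 to 26.6 CPM). Library 7 was the deepest of the series and library 8 was not, and the labels give no batch for either.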
